A study of Mus musculus with 6 samples.

Results

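The TGF-beta ligands, receptors and latent binders are 10 genes of the 46095 in the count table: the ligands Tgfb1, Tgfb2 and Tgfb3, the receptors Tgfbr1, Tgfbr2 and Tgfbr3, and the latent TGF-beta binding proteins Ltbp1, Ltbp2, Ltbp3 and Ltbp4. They were taken by symbol, and all 10 passed the filter on low counts that left 14484 genes. RNA sequencing was done on 3 hearts labelled STAT3cKO and 3 hearts labelled wild type, mice with and without a deletion of STAT3 limited to heart muscle cells. The design text asks which pathways bearing on heart function differ in the STAT3cKO mice. The labels give genotype alone. They name no Cre driver, strain, age, sex or treatment, and nothing says whether each library, called a heart here, came from its own animal. The p-values then cover only the variation among these 6 samples, and part of it may be technical. Replicates carry the numbers of the sample titles, and values per heart are given in the order 1, 3, 4 for wild type and 3, 6, 91 for STAT3cKO.

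TGF-beta is made with a propeptide that stays bound to it after cleavage and keeps it latent. LTBP1, LTBP3 and LTBP4 can be linked to that propeptide and tether the latent complex to fibrillin microfibrils in the matrix, while LTBP2 binds fibrillin but not latent TGF-beta. Integrins, proteases and thrombospondin release the active ligand, which binds the type II receptor TGFBR2. That receptor switches on the type I receptor TGFBR1, SMAD proteins then carry the signal to the nucleus, and betaglycan (TGFBR3) presents ligand as a co-receptor. In the heart the pathway is best known for the activation of fibroblasts and the making of matrix.

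Total counts per heart ran from 15416877 to 18264052. Levels are in CPM, the reads of a gene relative to its library's TMM-normalised total, and are not comparable between genes of unlike length. Stat3, the targeted gene, stood at 99.7, 85.8 and 97.5 CPM in the wild-type hearts against 52.9, 63.7 and 59.6 CPM in the STAT3cKO hearts. The groups did not overlap, and the log2 ratio of STAT3cKO to wild type (its log2 fold change) was -0.68 ± 0.10 (SE, n = 3 each, edgeR adjusted p = 0.000677). The cardiomyocyte markers were present in every heart, with 45378 to 50317 summed CPM over 8 genes in wild type and 52268 to 62539 in STAT3cKO. Several libraries stood apart. STAT3cKO replicate 91 held 62542 reads of Myh7, the fetal myosin heavy chain, against 5335 and 8943 in replicates 3 and 6, and it was the highest of the 6 hearts for 5 of the 10 TGF-beta genes. Wild type replicate 3 held 317 reads of Chad and 54 of Hapln1, both cartilage matrix genes, against at most 10 of Chad and 0 of Hapln1 in the other wild-type hearts. Wild type replicate 4 held 240 reads of the lung gene Sftpc, with 0 in replicates 1 and 3. These 4 genes were chosen after their values were seen. The hearts also differed in how reads fell with transcript length. The slope of log2 CPM deviation per doubling of length was positive in each wild-type heart (0.048, 0.11 and 0.15) and negative in each STAT3cKO heart (-0.11, -0.082 and -0.11). For that reason results are also given from a second fit with a length and GC offset. It takes out each heart's trend on transcript length and GC content and is called the corrected fit below. Because the sign of the slope follows genotype, a technical trend and a genotype difference tied to length cannot be told apart. The offset takes out either, and the name does not mean that its values are the truer ones. In the corrected fit the log2 ratio of Stat3 was -0.42 ± 0.095 (SE, edgeR adjusted p = 0.00891).

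Of the 10 genes, 5 were lower in STAT3cKO hearts and 0 were higher (edgeR's quasi-likelihood test, Benjamini-Hochberg adjusted p under 0.05 over all genes tested). Over all genes tested, 12.6% were lower and 13.2% higher. At an unadjusted p under 0.05, 5 of the 10 were lower and 1 higher, against 19.4% and 19.2% of all genes. DESeq2 and limma-voom each gave 5 lower and 0 higher, against 12.0% lower and 12.5% higher of all genes in DESeq2 and 12.7% and 13.4% in limma-voom. The 5 were the ligand Tgfb1, the receptors Tgfbr2 and Tgfbr3, and the binders Ltbp1 and Ltbp4, with log2 ratios from -0.63 to -0.48. The same 5 genes showed no overlap between the groups, all with lower STAT3cKO hearts, a pattern that 21.5% of all genes tested showed in that direction. The median log2 ratio was -0.26 over the 10 genes and -0.0016 over all genes tested. In the corrected fit 3 were lower (Tgfb1, Ltbp1 and Ltbp4) and 1 was higher (Ltbp3), against 7.84% lower and 10.9% higher over all genes tested. The medians there were -0.045 over the 10 genes and 0.019 over all. The corrected fit without STAT3cKO replicate 91 gave 2 lower, against 5.87% of all genes, and 1 higher, against 1326 of 14733 genes. Without wild type replicate 1 the plain fit gave 4 lower (9.10% of all genes), and without wild type replicate 3 or without a low-count filter it gave 1 higher (8.70% and 8.12%), with 5 lower in the latter (9.40%). In whole-heart RNA, fewer cells of a type and less RNA per cell cannot be told apart.

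**Figure D1:**
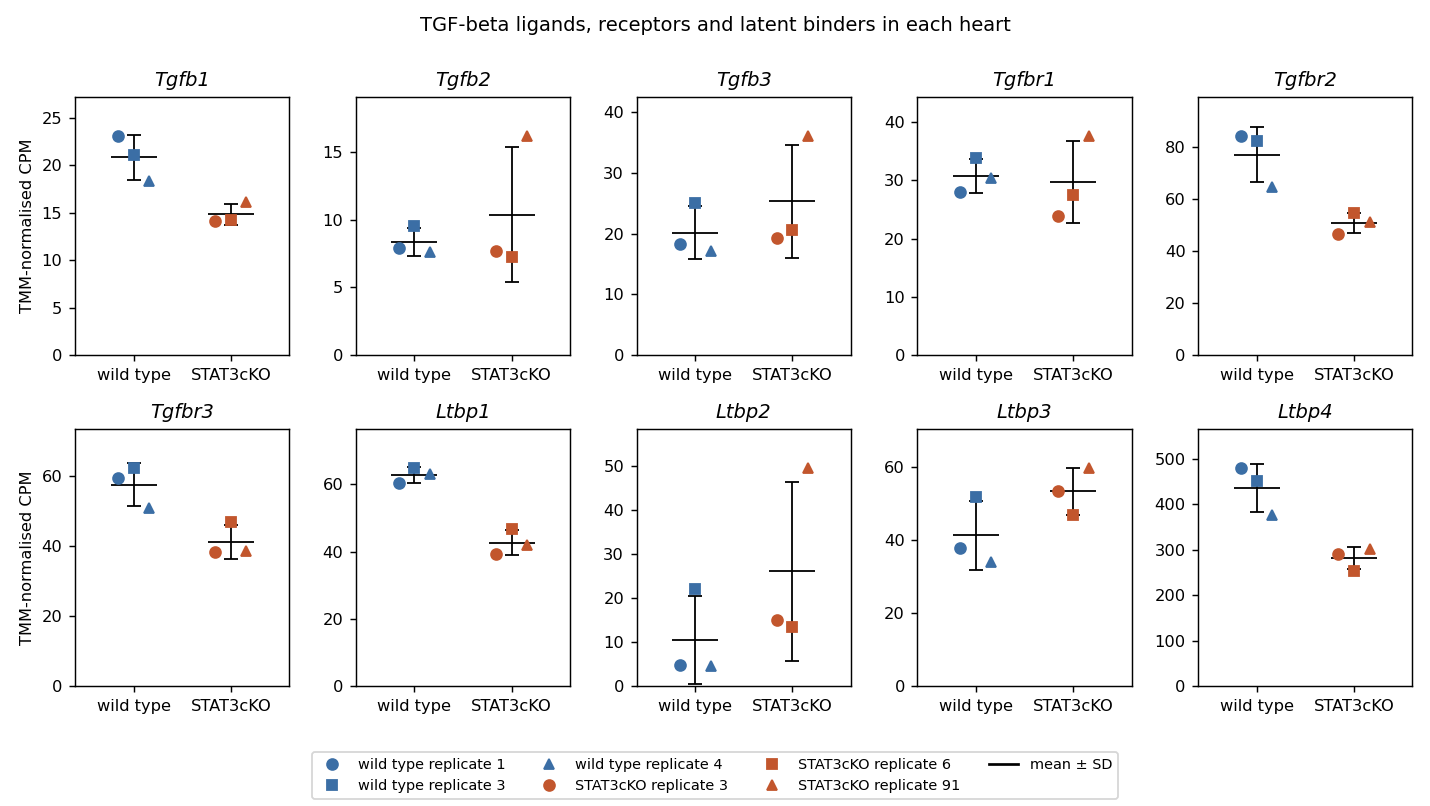
TMM-normalised CPM (vertical axes, each from 0) of the 10 genes in the 6 hearts; each point is 1 heart, and the black line and bar give the mean ± SD of 3 hearts. The groups separate for Tgfb1, Tgfbr2, Tgfbr3, Ltbp1 and Ltbp4, while STAT3cKO replicate 91 lies above every other heart for Tgfb2, Tgfb3, Tgfbr1, Ltbp2 and Ltbp3.

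The sequences before the transcription starts of the genes that were lower in both fits are printed here because these genes were lower together in hearts in which a transcription factor was deleted. Each holds the 250 bases before an annotated start (RefSeq, GRCm38.p6), 5′ to 3′ on the gene's strand, and none of these bases lies in a GENCODE M21 exon of the gene. RefSeq exons were not used. Capitals mark GGGCGG, the core of the SP1 box, and CAGAC, a SMAD box core, on either strand, with overlapping matches run together. Ltbp1 has 2 windows in the table, and the one at the gene's 5′ end runs into the gene's RefSeq span and is not shown. Ltbp4 has 3, of which the one free of exon bases is shown. Both windows shown for these genes lie inside the gene's span, before the start of a shorter transcript, and gene-level counts do not separate the transcripts.
Tgfb1, chr7:25686752-25687001, plus strand: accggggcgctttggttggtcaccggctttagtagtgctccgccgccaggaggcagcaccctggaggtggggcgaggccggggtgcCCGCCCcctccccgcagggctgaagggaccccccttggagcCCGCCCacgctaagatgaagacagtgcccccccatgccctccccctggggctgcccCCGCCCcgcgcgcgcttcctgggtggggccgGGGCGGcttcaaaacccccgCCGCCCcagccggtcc
Ltbp4, chr7:27333664-27333913, minus strand: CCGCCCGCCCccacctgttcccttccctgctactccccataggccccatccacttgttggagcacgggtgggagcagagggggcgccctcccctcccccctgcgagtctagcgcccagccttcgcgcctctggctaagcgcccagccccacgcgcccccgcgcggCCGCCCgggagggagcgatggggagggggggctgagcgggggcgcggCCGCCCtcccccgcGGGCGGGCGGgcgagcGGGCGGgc
Ltbp1, chr17:75178531-75178780, plus strand: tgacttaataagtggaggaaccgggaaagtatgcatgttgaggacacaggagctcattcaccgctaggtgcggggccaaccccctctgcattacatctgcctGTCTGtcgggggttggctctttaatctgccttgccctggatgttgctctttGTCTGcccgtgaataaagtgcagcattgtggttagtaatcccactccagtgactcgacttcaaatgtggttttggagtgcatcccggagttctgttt

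Windows of this length were found for 8 of the 10 genes, 12 windows in all, and not for Tgfb3 and Tgfbr3. None of the 12 holds the STAT core TTCNNNGAA, which stands in 7.02% of all 32851 promoter windows of that length. GGGCGG stands in 6 of the 12 and in 32.7% of all windows. CAGAC stands in 7 of the 12 and in 42.2% of all windows. Windows of the same gene are not independent, and Ltbp4 windows overlap each other. By gene, GGGCGG stands in 4 of the 8 and CAGAC in 6 of the 8. The Tgfb1 window was 75.2% and the Ltbp4 window 79.2% G and C, against 50.8% in the Ltbp1 window shown and a median of 52.4% over all. Missing letters in these windows say nothing about binding elsewhere in the genes.

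Among the ligands, Tgfb1 was lower and Tgfb2 and Tgfb3 did not pass. Tgfb1 (GRCm38 chromosome 7, 25687002 to 25705077), the ligand made by many cell types including macrophages, endothelial cells and fibroblasts, stood at 23.1, 21.1 and 18.4 CPM in wild type, against 14.1, 14.3 and 16.2 CPM in STAT3cKO. Every STAT3cKO heart lay below every wild-type heart. The log2 ratio of -0.49 ± 0.12 (SE, n = 3 each, adjusted p = 0.0124 by edgeR), a level lower by 28.7%, was also -0.49 in the corrected fit (adjusted p = 0.0112). The transcript, at 2573 nt, is the shortest of the 10. Leaving out wild type replicate 1 ended the call (-0.41, adjusted p of 0.0562 by edgeR).

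Tgfb2 (chromosome 1, 186622787 to 186709697), the isoform that needs betaglycan most for binding, stood at 7.93, 9.54 and 7.62 CPM in wild type, against 7.71, 7.27 and 16.2 CPM in STAT3cKO. STAT3cKO replicates 3 and 6 lay at the wild-type level, and replicate 91 was 2.16 times their mean. With all hearts the log2 ratio was 0.32 ± 0.30 (SE, adjusted p = 0.465 by edgeR), and it was -0.15 without STAT3cKO replicate 91 (adjusted p = 0.599). Tgfb3 (chromosome 12, 86056743 to 86079041), a ligand of mesenchymal cells, gave the same picture, with 18.2, 25.1 and 17.2 CPM in wild type, against 19.3, 20.6 and 36.02 CPM in STAT3cKO. Replicate 91 was 1.80 times the mean of replicates 3 and 6. Its log2 ratio was 0.34 ± 0.27 (SE, adjusted p = 0.413 by edgeR), and -0.0047 without replicate 91 (adjusted p = 0.989). Across the 6 hearts, log2 CPM of Tgfb2 and Tgfb3 had a Pearson r of 0.95, as a description of 6 libraries in which 1 heart sets the range for both genes.

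Of the receptors, Tgfbr2 and Tgfbr3 were lower, and Tgfbr1 did not pass. Tgfbr2 (chromosome 9, 116087695 to 116175363), the type II receptor that binds ligand first, stood at 83.96, 82.1 and 64.7 CPM in wild type, against 46.6, 54.4 and 51.2 CPM in STAT3cKO. The groups did not overlap. A log2 ratio of -0.60 ± 0.11 passed (SE, adjusted p = 0.0025 by edgeR), and the call was present in each of the 6 fits that left out 1 heart (-0.71 to -0.53). The corrected fit gave -0.25, which did not pass (edgeR adjusted p = 0.125). At 8092 nt its transcript is the longest of the 10 and the only one among the longest 10% of genes tested, a class whose median log2 ratio was -0.31 in the plain fit and 0.034 in the corrected one.

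Tgfbr3 (chromosome 5, 107106567 to 107289629), betaglycan, stood at 59.5, 62.2 and 50.7 CPM in wild type, against 38.2, 46.7 and 38.6 CPM in STAT3cKO, again without overlap. Its log2 ratio was -0.48 ± 0.11 (SE, adjusted p = 0.00818 by edgeR) and passed in each fit without 1 heart. It was -0.24 in the corrected fit, which did not pass (edgeR adjusted p = 0.126). Tgfbr1 (chromosome 4, 47353222 to 47414926), the type I kinase that passes the signal to SMADs, stood at 27.95, 33.8 and 30.5 CPM in wild type, against 23.95, 27.5 and 37.6 CPM in STAT3cKO. The groups overlapped, with the lowest and the highest heart both in STAT3cKO. A log2 ratio of -0.047 ± 0.15 (SE, adjusted p = 0.844 by edgeR) changed sign in the corrected fit (0.15, adjusted p = 0.501).

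**Figure D2:**
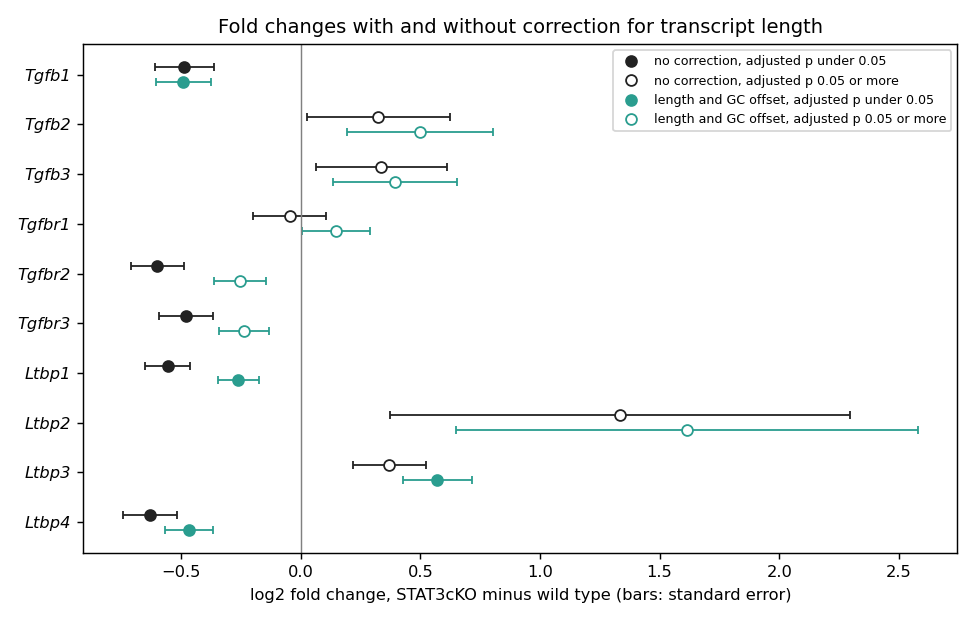
Log2 fold change of each gene, STAT3cKO minus wild type (horizontal axis; bars are standard errors), without correction (black) and with the length and GC offset of the corrected fit (green); filled points have an edgeR adjusted p under 0.05. The offset leaves Tgfb1 at -0.49, moves Tgfbr2, Tgfbr3 and Ltbp1 to between -0.26 and -0.24, and puts Ltbp4 at -0.47.

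Of the latent binders, Ltbp1 and Ltbp4 were lower, and Ltbp2 and Ltbp3 did not pass. Ltbp4 (chromosome 7, 27305140 to 27339720), which is also known for its part in elastic fibre assembly, was by far the most abundant of the 10 genes per length, at 81.1 ± 9.85 CPM per kilobase of its longest annotated transcript in wild type against 52.3 ± 4.57 in STAT3cKO hearts (SD, n = 3 each). The other 9 lay between 1.56 and 9.51 CPM per kilobase in wild type. Ltbp4 stood at 480.5, 451.8 and 377.7 CPM in wild type, against 290.01, 254.2 and 301.4 CPM in STAT3cKO, and the groups did not overlap. Its log2 ratio of -0.63 ± 0.11 (SE, adjusted p = 0.00199 by edgeR), a level lower by 35.4%, was the largest decrease of the 10 in that fit. It was -0.47 in the corrected fit (edgeR adjusted p = 0.00723) and -0.73 to -0.56 without 1 heart, with the call present in each of these fits.

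Ltbp1 (chromosome 17, 75005480 to 75392512), the binder that first defined the family, stood at 60.3, 64.8 and 62.97 CPM in wild type, against 39.3, 46.7 and 41.9 CPM in STAT3cKO. The wild-type hearts lay close together (SD 2.29 CPM), and the groups did not overlap. At -0.56 ± 0.094 (SE) its log2 ratio had the smallest p of the 10 (edgeR adjusted p = 0.00151). The corrected fit gave -0.26 (edgeR adjusted p = 0.0488), and without STAT3cKO replicate 91 that fit gave -0.26 and did not pass (adjusted p = 0.0969).

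Ltbp3 (chromosome 19, 5740900 to 5758536), a binder with a known role in bone growth, stood at 37.9, 51.9 and 34.1 CPM in wild type, against 53.3, 46.9 and 59.7 CPM in STAT3cKO. Wild type replicate 3 lay within the range of the STAT3cKO hearts, and wild type replicates 1 and 4 lay below all of them. A log2 ratio of 0.37 ± 0.15 did not pass (SE, adjusted p = 0.10001 by edgeR). It passed in the corrected fit (0.57, adjusted p = 0.0193), without wild type replicate 3 (0.56, adjusted p = 0.0117) and with no filter on low counts (0.35, adjusted p = 0.0111).

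Ltbp2 (chromosome 12, 84783212 to 84876558) varied most among the 10, at 4.74, 22.1 and 4.72 CPM in wild type, against 15.1, 13.5 and 49.5 CPM in STAT3cKO. Wild type replicate 3 was 4.68 times the mean of the other wild-type hearts, and STAT3cKO replicate 91 was 3.46 times the mean of replicates 3 and 6. Its log2 ratio of 1.33 ± 0.96 did not pass (SE, adjusted p = 0.384 by edgeR). It ranged from 0.46 without STAT3cKO replicate 91 to 2.47 without wild type replicate 3, and none of the 6 fits passed. An antisense transcript overlaps 9.34% of its exon bases and held 16 reads over the 6 hearts.

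Other matrix genes, chosen after their values were seen, were high in the same hearts as Ltbp2. Comp, a cartilage and tendon matrix protein of the target list below, stood at 5.25, 40.1 and 4.72 CPM in wild type, against 18.6, 13.1 and 96.96 CPM in STAT3cKO. Postn, periostin, stood at 55.5, 105.9 and 54.03 CPM in wild type, against 77.7, 90.6 and 293.6 CPM in STAT3cKO. Both have wild type replicate 3 as the highest wild-type heart and replicate 91 as the highest STAT3cKO heart. Fmod, fibromodulin, had only the first of these peaks at that size, with 5.46, 45.9 and 6.36 CPM in wild type, against 3.62, 6.62 and 13.1 CPM in STAT3cKO. Chad and Hapln1, high in wild type replicate 3, held 4 and 1 reads in STAT3cKO replicate 91. The part of cartilage-like or valve tissue in the level of Ltbp2 was not tested.

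**Figure D3:**
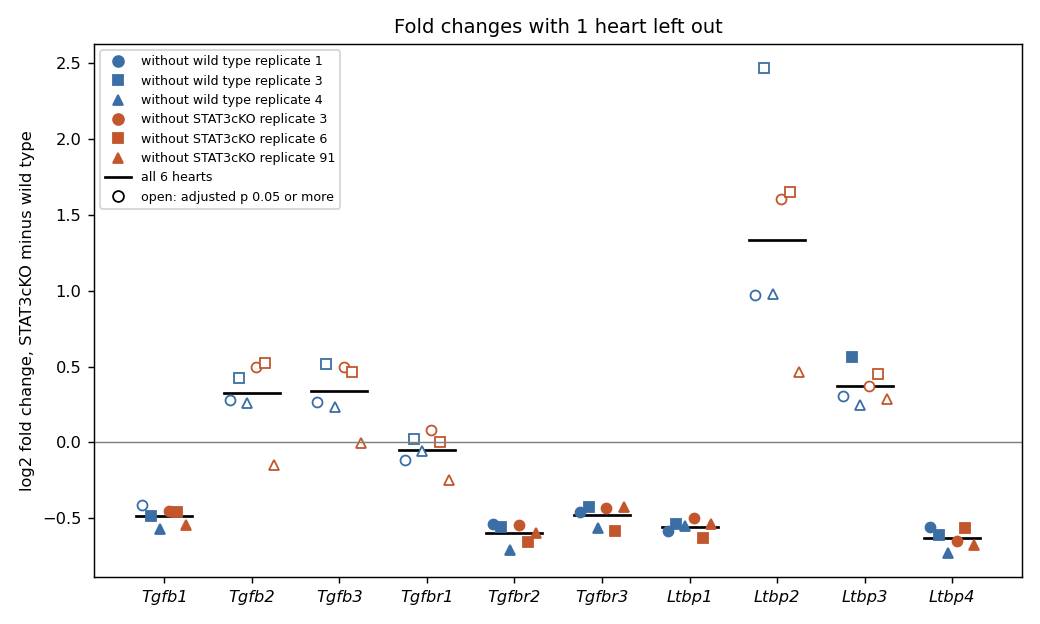
Log2 fold change, STAT3cKO minus wild type (vertical axis), of each gene with all 6 hearts (black line) and with 1 heart left out (points; filled where the edgeR adjusted p is under 0.05). Tgfbr2, Tgfbr3, Ltbp1 and Ltbp4 stay filled in all 6 fits, while Tgfb2 and Tgfb3 drop to -0.15 and -0.0047 without STAT3cKO replicate 91 and Ltbp2 spans 0.46 to 2.47.

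The make-up of each family was compared as the share of its reads per kilobase taken by each gene, with a two-sided exact permutation test over the hearts. With 3 hearts against 3 that test cannot give a p under 0.1, and the adjusted values for the 10 shares cannot reach 0.05. The shares were taken from raw counts without the length and GC offset, so each heart's trend on transcript length remains in them. Tgfb1 took 56.4, 46.9 and 52.1% of the ligand total in wild type, against 43.2, 42.5 and 31.3% in STAT3cKO. Tgfb3 went from 37.8 ± 4.32% to 48.2 ± 4.26% (SD, n = 3 each, exact permutation p = 0.1, adjusted p = 0.143). Neither gene's groups overlapped. The order of the ligands depends on the length used. Over the longest annotated transcripts Tgfb3 exceeded Tgfb1 in each STAT3cKO heart and Tgfb1 exceeded Tgfb3 in each wild-type heart, while over the median transcript length of each gene Tgfb1 stayed first, at 64.9% and 52.7% against 12.9% and 17.8% for Tgfb3. Without STAT3cKO replicate 91 the difference for Tgfb1 was -8.96 percentage points in place of -12.8.

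Among the binders, with the longest transcripts, Ltbp3 took 6.26, 8.55 and 6.91% in wild type, against 13.1, 12.7 and 13.04% in STAT3cKO, without overlap and with little spread in STAT3cKO. Ltbp4 went from 84.5, 79.2 and 81.3% to 75.5, 73.3 and 69.96%, a difference of -8.74 percentage points (exact permutation p = 0.1, adjusted p = 0.143). With the median transcript length of each gene, Ltbp3 took 18.9, 24.5 and 20.4% in wild type, against 34.2, 33.3 and 34.1% in STAT3cKO, and the Ltbp4 difference was -13.7 percentage points. Among the receptors the share of Tgfbr1 went from 22.1 ± 2.55% to 28.2 ± 5.03% and that of Tgfbr2 from 39.04 ± 2.29% to 34.5 ± 1.37% (SD, n = 3 each, exact permutation p = 0.1 for each, adjusted p = 0.143). Tgfbr3 held 38.9 ± 0.283% and 37.3 ± 3.72% (exact permutation p = 0.8). With the median length the wild-type shares were 29.4% for Tgfbr1, 23.1% for Tgfbr2 and 47.5% for Tgfbr3, so the level of a share depends on the length used.

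**Figure D4:**
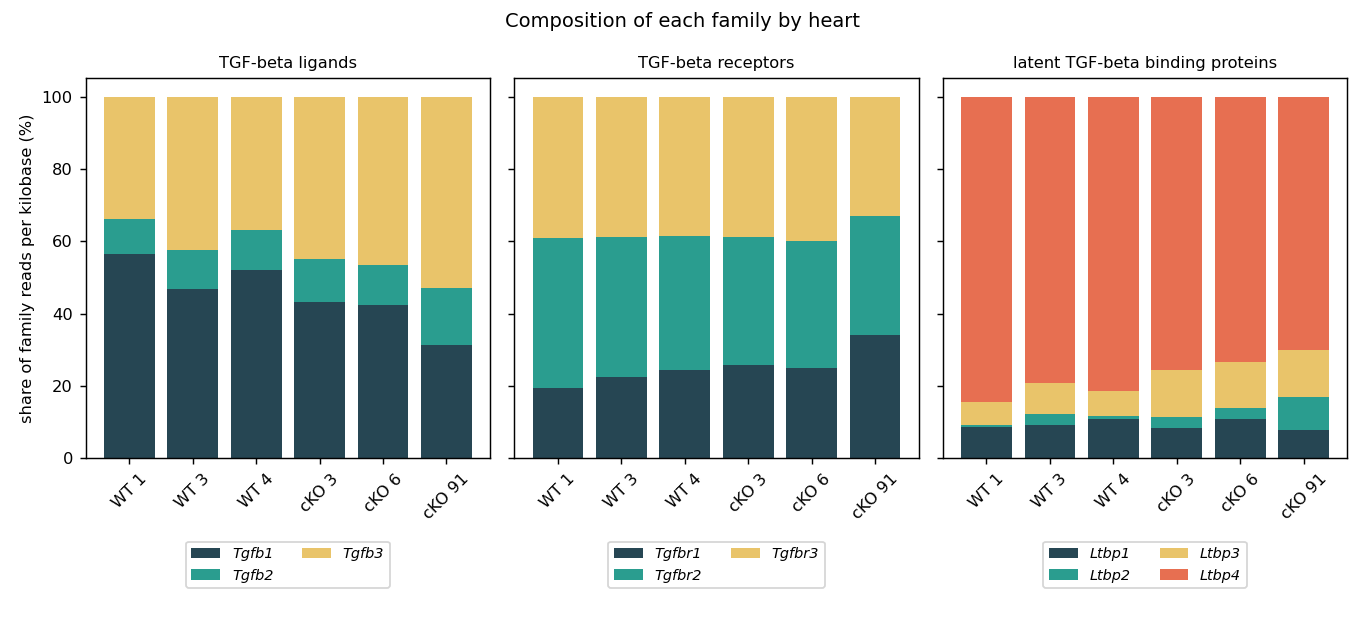
Share of each family's reads per kilobase of longest annotated transcript taken by each gene (vertical axis, percent), in 3 wild-type (WT) and 3 STAT3cKO (cKO) hearts. Tgfb3 takes 48.2% of the ligand total on average in STAT3cKO against 37.8% in wild type, and Ltbp3 takes 12.9% of the binder total against 7.24%.

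The other genes of the pathway were described by 6 lists of 98 symbols, of which 89 were tested. Of these, 9 were higher, 14 lower and 66 did not pass (edgeR), and the median log2 ratio was -0.08. These shares stand beside 13.2% higher and 12.6% lower over all genes tested. In the corrected fit 10 were higher and 10 lower, against 10.9% higher and 7.84% lower over all genes tested.

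Of 16 genes that process or activate latent TGF-beta, 5 were lower, 1 was higher and 10 did not pass, with a median log2 ratio of -0.29. Itgb8, the beta subunit of an integrin that frees TGF-beta from its latent complex, held 32, 26 and 14 reads in wild type, against 3, 3 and 2 in STAT3cKO, a log2 ratio of -2.94 ± 0.54 (SE, adjusted p = 0.00236 by edgeR). Its STAT3cKO hearts lie under the filter's minimum of 10 reads, so it was tested only through wild type. Lrrc32, which holds latent TGF-beta on cell surfaces, fell from 21.5 ± 1.37 to 14.1 ± 1.06 CPM (SD, n = 3 each, log2 ratio -0.61 ± 0.11, edgeR adjusted p = 0.00273). Furin, the protease that cuts the propeptide, fell by 0.40 on the log2 scale (edgeR adjusted p = 0.00552) and missed the threshold in the corrected fit (-0.19, adjusted p = 0.122). The gene that rose was Bmp1, a matrix protease that can cut LTBP1, from 43.5 ± 2.04 to 59.9 ± 4.03 CPM (0.46 ± 0.092, edgeR adjusted p = 0.0036). In the corrected fit, 3 of the list were lower and 1 higher, against 7.84% and 10.9% of all genes tested. Without STAT3cKO replicate 3, 3 were lower, against 8.51% of all genes.

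Of 14 genes of microfibrils and elastic fibres, 3 were lower, 1 was higher and 10 did not pass (median -0.17). Fbn1, fibrillin-1, the microfibril protein to which the binders attach, fell from 111 ± 6.51 to 69.3 ± 11.4 CPM, with a log2 ratio of -0.68 ± 0.11 (SE, adjusted p = 0.00149 by edgeR). At 11971 nt its transcript is longer than that of any of the 10, and in the corrected fit it missed the threshold (-0.21, edgeR adjusted p = 0.224). Efemp1, the elastic fibre protein fibulin-3, fell from 12.4 ± 1.43 to 5.82 ± 0.866 CPM (-1.09 ± 0.16, edgeR adjusted p = 0.000811). Adamts10, which takes part in fibrillin microfibril assembly, rose from 38.5 ± 5.17 to 60.1 ± 2.80 CPM (0.64 ± 0.11, edgeR adjusted p = 0.00143), and Emilin1, an elastic fibre glycoprotein that binds the TGF-beta precursor, fell by 0.40 on the log2 scale (edgeR adjusted p = 0.0201). Leaving out wild type replicate 1 or 3 or STAT3cKO replicate 3 ended the call of Emilin1 (adjusted p of 0.0678, 0.0788 and 0.085 by edgeR). Without wild type replicate 3, 3 of the list were higher, against 8.70% of all genes tested, and 2 without STAT3cKO replicate 91, against 10.4%. DESeq2, limma-voom and edgeR without robust estimation each gave 3 higher, against 12.5%, 13.4% and 13.1% of all genes tested. With no low-count filter 2 were higher, against 8.12%. The list's median was 0.032 without wild type replicate 3 and -0.0089 in the corrected fit.

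Of the 9 co-receptors and alternative receptors tested, Eng was lower and Bambi higher. Eng, endoglin, the co-receptor of endothelial cells, went from 189 ± 16.4 to 134 ± 26.7 CPM, with a log2 ratio of -0.49 ± 0.13 (SE, adjusted p = 0.0179 by edgeR). Leaving out wild type replicate 1 or STAT3cKO replicate 6 ended its call (adjusted p of 0.0707 and 0.0525 by edgeR). Bambi, a decoy receptor, stood at 10.6 ± 0.993 and 15.9 ± 3.09 CPM (0.59 ± 0.16, edgeR adjusted p = 0.0157). Scaling by library size alone ended the call (adjusted p of 0.0594 by edgeR), as did leaving out wild type replicate 3 (0.0502) or 4 (0.0657) or STAT3cKO replicate 3 (0.0698). In the corrected fit 3 genes of the list were higher, against 10.9% of all genes tested.

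Among the 15 SMADs and SMAD regulators, 0 were higher and 0 lower (edgeR). At an unadjusted p under 0.05, 1 was higher and 2 lower, DESeq2 called 0, and limma-voom called 1 lower. Smad4, the partner shared by all receptor-activated SMADs, had the smallest p and went from 65.4 ± 0.751 to 55.5 ± 0.997 CPM, with a log2 ratio of -0.24 ± 0.082 (SE, adjusted p = 0.0506 by edgeR). With library size as the only scaling, 4 of the list were lower, against 18.7% of all genes tested. Without STAT3cKO replicate 6, 1 was higher and 1 lower, against 12.7% and 13.5% of all genes tested.

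Of 17 transcriptional targets of TGF-beta tested, 3 were higher, 3 were lower and 11 did not pass. Their median log2 ratio was 0.79 with all hearts and 0.13 without STAT3cKO replicate 91, which was the highest heart for Postn, Comp, Lox and Timp1 among them (chosen after their values were seen). Fn1, fibronectin, fell from 97.95 ± 23.5 to 43.9 ± 3.41 CPM, with a log2 ratio of -1.16 ± 0.15 (SE, adjusted p = 0.000862 by edgeR), and Col1a2, a chain of collagen I, from 187 ± 25.9 to 114 ± 17.7 CPM (-0.72 ± 0.13, adjusted p = 0.00226). Cdkn1a, the cell cycle inhibitor p21, rose from 15.4 ± 3.33 to 32.7 ± 10.2 CPM (1.08 ± 0.25, edgeR adjusted p = 0.0182). It missed the threshold when wild type replicate 1 was left out (adjusted p of 0.0531 by edgeR) and when STAT3cKO replicate 91 was (0.0532). In each of these fits 0 targets were higher, against 10.2% and 10.4% of all genes tested. DESeq2 gave 4 higher, against 12.5% of all genes tested. The fits by limma-voom and by edgeR without robust estimation each gave 5, against 13.4% and 13.1%. Signals other than TGF-beta also act on these targets.

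Of 18 further ligands and antagonists of the superfamily tested, 3 were higher, 2 lower and 13 did not pass. Dcn, decorin, a proteoglycan that binds TGF-beta, rose from 752 ± 185 to 1304 ± 167 CPM, with a log2 ratio of 0.79 ± 0.17 (SE, adjusted p = 0.00715 by edgeR), and Gdf15, a stress cytokine, stood at 0.875, 0.954 and 1.21 CPM in wild type, against 7.10, 3.83 and 14.5 CPM in STAT3cKO. The log2 ratio of Gdf15 was 3.07 (adjusted p = 0.00464 by edgeR), and 2.43 without STAT3cKO replicate 91. Bmp6, a ligand of the BMP branch, fell from 39.5 ± 5.04 to 24.99 ± 3.14 CPM (-0.66 ± 0.12, edgeR adjusted p = 0.00267). Inhba, the activin A subunit, held 14, 36 and 24 reads in wild type, against 9, 2 and 3 in STAT3cKO (log2 ratio -2.21 ± 0.60, edgeR adjusted p = 0.0182), again tested only through wild type. Its call ended without wild type replicate 3 or 4 (adjusted p of 0.0848 and 0.0504 by edgeR) or STAT3cKO replicate 6 or 91 (0.0519 and 0.0652).

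**Figure D5:**
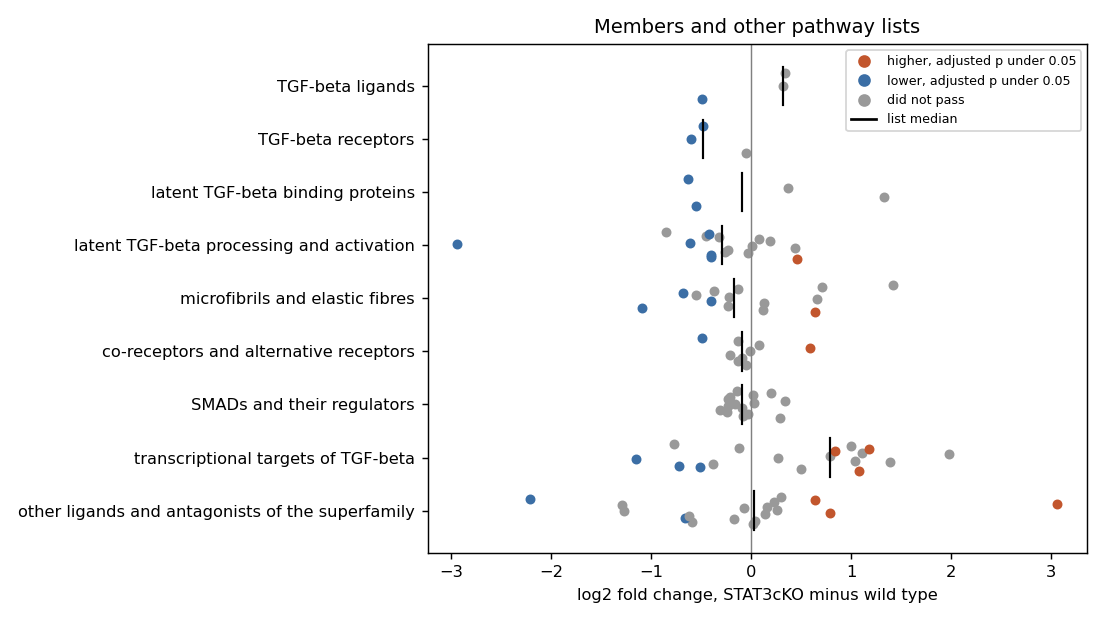
Log2 fold change, STAT3cKO minus wild type (horizontal axis), of each tested gene in the 3 families and the 6 other lists; black lines are list medians, and blue and orange points had an edgeR adjusted p under 0.05. The SMAD list holds no coloured point, while the list of targets has 3 on each side of 0.

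Markers of several cell types of the heart also differed between the groups. Over all genes tested, 13.2% were higher and 12.6% lower in the plain fit, and 10.9% and 7.84% in the corrected fit. Groups without overlap were seen for 21.5% of all genes tested with STAT3cKO higher and 21.5% with STAT3cKO lower. Of 8 cardiomyocyte markers 3 were higher and 1 lower, and their summed levels, given above, did not overlap between the groups and were higher in STAT3cKO. Of 9 endothelial markers tested 5 were lower and 0 higher, with 1324 to 1516 summed CPM in wild type and 917 to 991 in STAT3cKO. Of 12 markers of smooth muscle and pericytes 7 were lower and 0 higher (2944 to 3092 against 2297 to 2578), and of 10 macrophage markers 4 were lower and 0 higher (538 to 691 against 418 to 603). Of 12 fibroblast markers 3 were lower and 1 higher, and the summed levels overlapped (1971 to 2856 against 2399 to 2660). In the corrected fit 2 of the cardiomyocyte list were higher and 0 lower, and the counts were 4 lower of the endothelial list, 4 of the smooth muscle list, 6 of the macrophage list and 1 of the fibroblast list. The part of these cell types in the lower level of the 5 TGF-beta genes was not tested. Of the other lists, 1 of 5 mesothelial and 2 of 4 Schwann cell markers tested were lower, 4 of 5 red blood cell genes were higher, and 0 of 2 valve and cartilage markers and 0 of 1 lymphocyte marker passed. The 2 of the valve and cartilage list were Sox9 and Fmo2, which say little about such tissue. Chad, Hapln1 and Acan of that list did not pass the low-count filter. The 2 Schwann cell genes were tested only through wild type. Sox10 held 44, 59 and 21 reads in wild type, against 4, 7 and 7 in STAT3cKO. Gfra3 held 48, 44 and 32 reads in wild type, against 1, 13 and 2 in STAT3cKO. The 4 lung markers did not pass the low-count filter. Their reads lay almost only in wild type replicate 4, with 240 of Sftpc, 61 of Scgb1a1, 51 of Sftpa1 and 4 of Sftpb. Higher red blood cell genes numbered 1 in the corrected fit and 1 without STAT3cKO replicate 91, 3 without STAT3cKO replicate 3, and 0 with no low-count filter or without wild type replicate 1, 3 or 4. In these fits 8.12% to 10.9% of all genes tested were higher. The mesothelial call was lost when wild type replicate 1 or STAT3cKO replicate 3 was left out.

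By Pearson r of log2 CPM over the 6 hearts, among 11353 genes compared, the nearest to Tgfb1 were Ndn (r = 0.998), Top2a (0.997) and Tnfrsf1a (0.996). The nearest to Tgfbr2 were Scara5 (0.995), Papss1 (0.994) and Bmf (0.994). The nearest to Ltbp1, the binder with the smallest p, were C1galt1 (0.998), Ston1 (0.997) and Trim56 (0.996). With 6 hearts in 2 groups such values are common. An r over 0.9 was reached by 417 genes with Tgfb1, 427 with Tgfbr2 and 990 with Ltbp1. Among the 10 genes themselves, Tgfb1, Tgfbr2, Tgfbr3, Ltbp1 and Ltbp4 had r from 0.83 to 0.98 with each other, and Ltbp2 had r of 0.92 with Tgfb3 and 0.95 with Ltbp3.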

How the data were processed

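RNA was sequenced in 6 libraries labelled as mouse hearts, 3 per genotype. Trizol extraction and an Illumina library protocol are given per the labels' protocols, and HISAT2 and the build GRCm38 per the submitters' processing notes. The values deposited by the authors are unnormalised counts, whole numbers per gene and heart. How they were counted (program, annotation, strand, multi-mapping reads) is not given in the sources used here, so counts of genes that overlap on exons are uncertain.

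In R 4.3.3 and edgeR 4.0.16, low genes were removed with filterByExpr (minimum count 10), libraries were scaled by TMM and genotype was tested by robust quasi-likelihood F tests. P-values were adjusted over all 14484 genes by Benjamini-Hochberg, and 0.05 was the threshold. Each standard error is the log2 ratio over the root of its F. Replicates of a group differed by more than sampling noise in each pair (mean chi-square per gene 10.7 or more). The fit was tested on simulated data. Lengths are those of the longest GENCODE M21 transcript of each symbol (13580 genes tested). The length and GC offset is a spline trend (5 degrees of freedom per variable) of each heart's deviations, and genes with no length received a median deviation. Coordinates are from RefSeq GRCm38.p6, matched by symbol for all 10 genes.

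Genes beside the 10 were named as follows: the 4 most significant at most of each pathway list (where none passed, the 1 nearest to passing), and the 3 most alike by Pearson r, with gene models, pseudogenes and mitochondrial genes left out. Markers are summarised by list. Some genes that the rule takes are left out by name and remain in the counts. The genes and lists were chosen with earlier results of these data known. Alternatives were other scalings, filters, DESeq2 1.42.0, limma-voom (limma 3.58.1), no robust estimation, the offset, removal of mitochondrial and haemoglobin genes and leaving out each heart. The offset without STAT3cKO replicate 91 was added after the data were seen.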

Additional observations from a re-analysis of the deposited data

How the results depend on the processing

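Each of the 10 genes was refitted in 17 other ways. Of these 170 values, 154 kept their direction and their side of the threshold. With the length and GC offset Tgfbr2 (-0.25) and Tgfbr3 (-0.24) no longer passed, Ltbp3 passed (0.57) and Tgfbr1 changed sign (0.15). With the offset and without STAT3cKO replicate 91, Tgfbr2 (-0.28), Tgfbr3 (-0.20) and Ltbp1 (-0.26) did not pass and Ltbp3 did (0.47). Ltbp3 also passed with no low-count filter (0.35). The number of the 10 genes that were lower was 3 with the offset and 2 with the offset and without STAT3cKO replicate 91, and 1 was higher in each of these and with no low-count filter. The cause was not tested.

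Without 1 heart, log2 fold changes ran from -0.57 to -0.41 for Tgfb1, -0.15 to 0.53 for Tgfb2, -0.0047 to 0.52 for Tgfb3, -0.25 to 0.085 for Tgfbr1, -0.71 to -0.53 for Tgfbr2, -0.58 to -0.42 for Tgfbr3, -0.63 to -0.50 for Ltbp1, 0.46 to 2.47 for Ltbp2, 0.25 to 0.56 for Ltbp3, -0.73 to -0.56 for Ltbp4 and -0.75 to -0.61 for Stat3. Tgfbr1 was at 0.022 without wild type replicate 3, 0.085 without STAT3cKO replicate 3 and 0.0057 without STAT3cKO replicate 6. The number of the 10 genes that were lower ran from 4 to 5 and the number higher from 0 to 1. Over all genes, 1237 to 1887 were higher and 1198 to 1999 lower, in place of 1918 and 1820, with the lowest counts without wild type replicate 4. Scaling by library size alone gave 1109 higher, and higher genes then made up 29.01% of calls rather than 51.3%, with the median over all genes at -0.11. The offset gave 1136 lower. Of the 6 other lists together, 5 to 11 genes were higher without 1 heart and 10 to 14 were lower. Without wild type replicate 1, 5 were higher, against 10.2% of all genes tested. Without robust estimation 14 were higher, against 13.1% of all genes tested. In the family shares, the difference for Tgfbr3 ran from -2.95 to 0.54 percentage points without 1 heart, with the highest value, and a changed sign, without STAT3cKO replicate 91. For Ltbp1 it ran from -1.50 to 0.13, with a changed sign without wild type replicate 4 (0.13) and STAT3cKO replicate 91 (0.013). The median transcript length in place of the longest changed no direction of a share but moved its level.

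No paired analysis was possible because the groups share only 1 replicate number. The counts of the 10 genes ran from 86 reads (Ltbp2) to 9334 (Ltbp4) per heart, and precision was limited by the spread between 3 hearts.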
